A study of Mus musculus with 15 samples.

Results

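The 692 chromatin regions described here were more open late after Fra2 activation in mouse embryonic fibroblasts, while their early ratio of Fra2 to control stayed near 1. They were chosen from 206367 consensus peaks by their read counts. Group CPM is the summed reads of a group at a peak per 1000000 reads that its libraries held in all peaks. A peak was kept where the late Fra2 CPM was at least 3, the ratio of late Fra2 to late control was at least 1.8, and early Fra2 lay between 20% below and 25% above early control, called the early window below. The regions are called late-gained peaks below. A gain at the late time alone was not shown for them. The choice used the late and early ratios, so edgeR's adjusted test of their difference, passed by 1 of the 692, decides nothing. When the choice was repeated with libraries held out, as described below, the chosen peaks had median early ratios above 1 in those libraries. Only part of those peaks were among the 692. The 64361 peaks that met the level and the early criteria, whatever their late ratio, serve as the background and include the 692.

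Fra2, the product of Fosl2, is a member of the Fos family of AP-1 transcription factors. Fos proteins pair with Jun proteins, bind the DNA sequence TGANTCA, and act largely at enhancers far from gene starts in fibroblasts, often beside TEAD and RUNX factors. Ezh2 is the enzyme of the Polycomb repressive complex PRC2 that methylates lysine 27 of histone H3, a mark of repressed genes. ATAC-seq inserts sequencing adapters into open DNA with the Tn5 transposase, so that reads pile up where regulatory elements are accessible.

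The series holds 15 Omni-ATAC-seq libraries in 5 groups of 3, all from embryonic fibroblasts of a C57 background. In 4 groups the cells carried a CRISPR activation construct, VPR with an mCherry reporter, and received lentiviral guide RNAs to Fra2 or a scrambled control, after which mCherry-positive and THY1-positive cells were sorted. Sample labels put the early groups at day 3 (early control 3 at day 4) and the late groups at day 10, whereas the series design gives days 4 and 11. The fifth group received the Ezh2 inhibitor GSK343 at 4 µM for 3 days and then 1 day of washout; whether these cells carried the construct or were sorted is not given in the labels. The guide sequences and the Fosl2 transcript were not analysed here, so the degree of Fra2 activation in each library is unknown. Whether replicates were separate cultures is not in the labels. A p-value here sets a group difference against the spread of libraries within groups, and that spread may be technical. In the main fit the spread was estimated from all 15 libraries together.

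Libraries held from 6750614 to 25283489 reads in peaks. Early control 3 was the shallowest, and the lowest Pearson correlation of log2 CPM across peaks between 2 libraries of a group was 0.783 in the early controls against 0.896 to 0.944 in the other groups. Gene-end peaks were found for 10 of 10 fibroblast markers, with the highest peak of each gene at 2.59 to 28.6 CPM over the groups. None was found for Pecam1, Emcn, Krt5, Ptprc, Adgre1, Rbfox3 or Myog, which mark endothelial, epithelial, immune, neuronal and muscle cells. The other genes of those lists had gene-end peaks of 2.21 to 6.88 CPM (3 of 5 endothelial), 1.49 to 4.51 (5 of 6 epithelial), 1.52 to 4.48 (3 of 4 neuronal), 2.11 to 15.1 (3 of 4 muscle) and 7.06 to 13.3 (3 of 5 macrophage and immune: Csf1r, Spi1 and Cd68), and open DNA at a gene's end is not expression.

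Promoter sequences are shown first because they are the late-gained regions whose bases could be read. RefSeq promoter windows of GRCm38.p6, from 250 bases before a gene's start to 50 after it, overlapped 8 late-gained peaks, and 9 windows were involved. The 250 bases before the start are printed for 4 of them, 5′ to 3′ along the gene's strand. Capitals mark the AP-1 letters TGANTCA, and in Chst4 also ACCACA, the complement of the RUNX letters TGTGGT. Gm30886 and Gm32191 are predicted genes, Chst4 encodes a sulfotransferase, and Krtap21-1 encodes a hair keratin-associated protein and stands for windows with none of the letters searched. They lie at chr4:22938325-22938574 (plus strand, Gm30886), chr6:97252654-97252903 (plus, Gm32191), chr8:110039335-110039584 (minus, Chst4) and chr16:89403775-89404024 (minus, Krtap21-1).
Gm30886: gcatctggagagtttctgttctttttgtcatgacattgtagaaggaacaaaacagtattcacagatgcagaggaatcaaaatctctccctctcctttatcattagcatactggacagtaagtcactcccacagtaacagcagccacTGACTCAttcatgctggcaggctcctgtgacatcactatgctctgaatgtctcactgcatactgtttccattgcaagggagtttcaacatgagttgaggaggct
Gm32191: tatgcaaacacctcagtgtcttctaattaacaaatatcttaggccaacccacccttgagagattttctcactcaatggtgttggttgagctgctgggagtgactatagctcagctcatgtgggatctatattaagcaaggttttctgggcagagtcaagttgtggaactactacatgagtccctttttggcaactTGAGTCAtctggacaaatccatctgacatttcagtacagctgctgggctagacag
Chst4: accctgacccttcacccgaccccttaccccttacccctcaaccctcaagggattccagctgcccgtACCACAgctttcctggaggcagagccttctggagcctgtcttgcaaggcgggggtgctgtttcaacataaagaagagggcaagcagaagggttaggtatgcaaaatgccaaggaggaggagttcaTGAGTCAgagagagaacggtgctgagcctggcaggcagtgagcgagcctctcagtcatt
Krtap21-1: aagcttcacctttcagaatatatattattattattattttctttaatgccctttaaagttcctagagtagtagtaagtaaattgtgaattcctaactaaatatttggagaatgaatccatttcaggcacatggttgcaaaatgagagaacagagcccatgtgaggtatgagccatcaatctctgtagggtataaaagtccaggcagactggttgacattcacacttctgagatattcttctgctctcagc

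In Gm30886 the middle base of the AP-1 match lay 101 bases before the gene's start and 1 base from the centre of the late-gained peak. In Gm32191 it lay 52 bases before the start and again 1 base from the peak's centre. In Chst4 it lay 56 bases before the start and 30 bases from the centre. Searched on both strands, TGANTCA occurred in 5 of the 9 windows, which touch 4 of the 8 peaks because the windows of Gm30886 and 1700025O08Rik overlap and share 1 match. All 32851 promoter windows held it in 7.81%, and the 8401 windows touched by background peaks in 6.73%. The TEAD letters GGAATG occurred in 0 of the 9 windows (14.7% of all windows) and TGTGGT in 2 (16.8%). A match of letters is not a measured binding site, and the bases of the remaining late-gained peaks were not read.

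The late-gained peaks were small, and most of them lay close to the thresholds. Their group CPM had a median of 2.52 in early control, 2.74 in early Fra2, 1.85 in late control, 3.66 in late Fra2 and 2.89 with the Ezh2 inhibitor. Background peaks had medians of 5.41 to 5.76 CPM in the same 5 groups. The late Fra2 level was under 4 CPM in 423 of the 692 peaks. The late ratio had a median of 1.96 and ran from 1.8 to 4.22; it was under 2 in 405 peaks (58.5%) and at least 2.5 in 29. Just inside the threshold, a peak in Slc24a3 had a late ratio of 1.802, and just outside it, a peak in Arhgef18 had 1.799. At the lower bound of the early window, a peak outside genes on chromosome 14 had an early ratio of 0.8003 and was kept, and a peak in Gipr had 0.799 and was not. At the level threshold, the last peak kept had a late Fra2 level of 3.01 CPM.

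In single libraries, the median level of the 692 peaks was 2.37, 2.40 and 3.41 CPM in the early controls and 2.68, 2.76 and 2.94 CPM in early Fra2. It was 2.11, 1.85 and 1.83 CPM in the late controls and 3.72, 3.91 and 3.80 CPM in late Fra2. The late groups did not overlap, whereas the early groups did, because early control 3 lay above every early Fra2 library. With the Ezh2 inhibitor the medians were 2.90, 2.87 and 2.93 CPM, between early control 3 and the other early controls. The peaks took 0.142% ± 0.00911 (SD, n = 3) of the reads in late control and 0.282% ± 0.00543 in late Fra2. In early control the share was 0.198% ± 0.0357, in early Fra2 0.205% ± 0.00909, and with the inhibitor 0.217% ± 0.00157 (SD, n = 3 each). A typical late-gained peak rested on few reads, with a median of 23 in early control 3 and 87 in late Fra2 1.

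**Figure D1:**
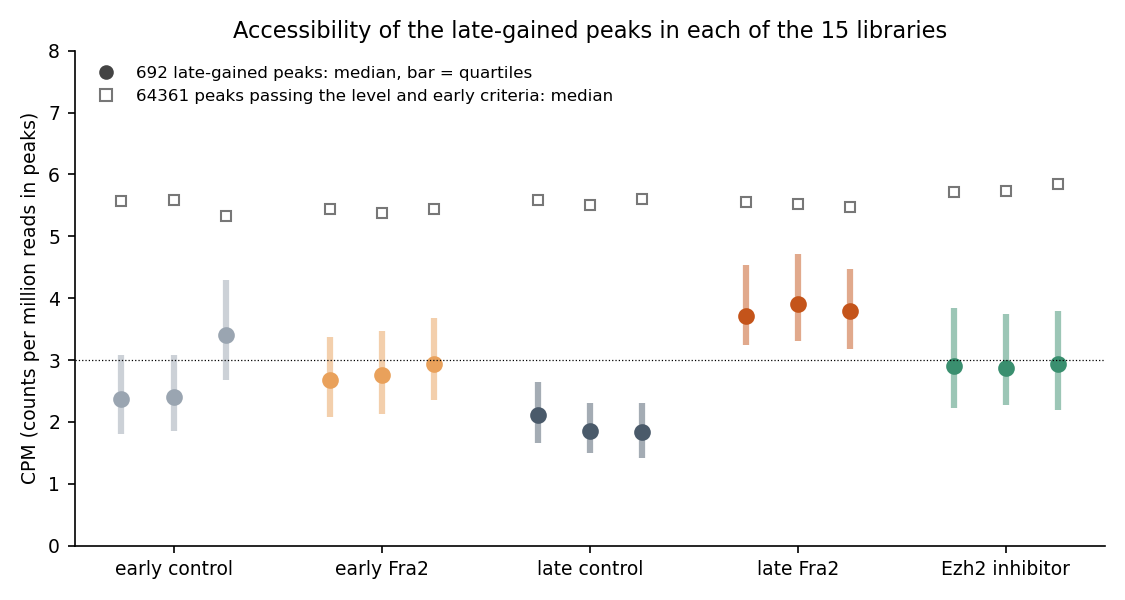
CPM of the 692 late-gained peaks in each library: circles are medians, bars run from the lower to the upper quartile, squares are medians of the 64361 background peaks, and the dotted line marks 3 CPM. Late Fra2 libraries had medians of 3.72 to 3.91 CPM and late controls 1.83 to 2.11, early control 3 (3.41) stood above the other early controls, and background medians stayed between 5.33 and 5.85.

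The late ratio had 2 sides: late Fra2 lay above the early level and late control lay below it. Late control divided by early control had a median of 0.763 over the late-gained peaks and 1.01 over the background. Late control was below early control in 628 peaks (90.8%; background 48.2%) and was the lowest of the 5 groups in 595. Late Fra2 divided by early Fra2 had a median of 1.41 (background 1.02), and late Fra2 was above early control in 671 peaks. All 3 late controls were below all 3 early controls in 164 late-gained peaks (23.7%), against 9.27% of all peaks, and above them in 1 (8.94% of all peaks). All 3 late Fra2 libraries were above all 3 early Fra2 libraries in 356 (51.4%), against 11.1%. The choice of peaks used these 12 libraries, so these values describe the set and test nothing. The late control level and the late Fra2 level both enter the late ratio, and a low late control helped a peak to be chosen.

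The peak at the paired starts of Gm30886 and 1700025O08Rik (chr4:22938223-22938724) is an example of a low late control. It had 8.30, 8.52 and 6.67 CPM in the early controls, 8.32, 6.71 and 7.65 in early Fra2, 2.71, 3.70 and 3.06 in the late controls, 5.64, 5.64 and 7.91 in late Fra2, and 11.5, 10.6 and 10.5 with the inhibitor. The late controls were the lowest libraries at this peak, the inhibitor libraries were the highest, and late Fra2 overlapped the early groups. The peak at Gm32191, near an end of Lmod3 (an actin-nucleating muscle protein), had 5.11, 4.15 and 3.41 CPM in the early controls, 5.22, 5.05 and 5.37 in early Fra2, 2.71, 3.18 and 2.24 in the late controls and 6.36, 5.97 and 5.23 in late Fra2. The Chst4 peak had 2.94, 3.80 and 3.56 CPM in the early controls, 3.42, 3.47 and 3.16 in early Fra2, 2.49, 1.56 and 2.47 in the late controls and 4.02, 3.96 and 3.86 in late Fra2. At Gm32191 and at Chst4 the late control libraries were again below the early controls, without overlap.

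Across all 206349 peaks tested, edgeR's quasi-likelihood test with Benjamini-Hochberg adjustment called 6.45% higher and 3.54% lower in late Fra2 than in late control. It called 645 of the 692 late-gained peaks higher, with a median log2 fold change of 0.91; the rule used this contrast, and the count carries no further reading. The count was 368 and 349 without late control 2 or 3, and 391 and 382 without late Fra2 1 or 2. All 3 late Fra2 libraries were above all 3 late controls in 670 late-gained peaks (96.8%), against 18.9% of all peaks and 12.1% of the background. The rule favoured this as well. In early Fra2 against early control edgeR called 10.1% of all peaks higher and 4.91% lower and 0 late-gained peaks in either direction, with 0 also at an unadjusted p under 0.05 and 0 by DESeq2. The early window of the rule used this contrast, and edgeR called 0 of the 64361 background peaks as well, so nothing is read from the 0. The median early log2 fold change was 0.12 (range -0.48 to 0.36), and the early ratio was above 1 in 524 peaks (75.7%), against 42.9% of the background.

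A gain confined to the late time was not shown peak by peak. The difference between the late and the early log2 fold change had a median of 0.84 with a median SE of 0.37. By edgeR's test of that difference 1 late-gained peak passed after adjustment, where 0.0116% of all peaks were called higher and 0.0819% lower. Before adjustment 487 were higher at a p under 0.05 and 0 lower (4.17% and 5.4% of all peaks). The rule used the late and early ratios, which fixed the sign of this difference in all 692 peaks, so nothing is read from these counts. The median adjusted p of that test in edgeR was 0.442. The count was 0 without early control 2, early Fra2 2, late control 2 or 3, or late Fra2 2 or 3, and it was 10 without early control 1 and 7 without early control 3. The 1 peak lies in Kcnq3 (chr15:66037935-66038436), which encodes a voltage-gated potassium channel subunit. It had 1.5, 2.58 and 2.81 CPM in the early controls, 1.71, 1.34 and 2.13 in early Fra2, 0.603, 0.752 and 0.825 in the late controls, and 2.56, 3.74 and 3.18 in late Fra2. Its late Fra2 libraries overlapped the early controls, its late controls were the lowest libraries, and its late log2 fold change of 2.04 was the largest of the set.

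Libraries that took no part in the choice gave smaller late ratios and early ratios above 1. The rule was applied to 2 replicate numbers at a time, and the third was read. The late ratio in the held-out libraries had a median of 1.34 with number 1 held out (1834 peaks chosen), 1.54 with number 2 (1065 peaks) and 1.49 with number 3 (806 peaks). Of the peaks chosen in these rounds, 372, 352 and 314 were among the late-gained peaks, so the held-out values describe mostly other peaks. Background medians were 0.993, 0.970 and 0.962. Late Fra2 was the higher library in 81.5%, 92.2% and 90.3% of the chosen peaks, and the held-out ratio reached 1.8 in 20%, 32.9% and 28.7%.

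The early ratio of the same chosen peaks, in the same held-out libraries, had medians of 1.38, 1.31 and 1.13, against 0.962, 0.947 and 1.03 in the background. Early Fra2 was the higher library in 80.0%, 78.3% and 59.7%, and the held-out early ratio lay in the early window in 32.3%, 35.6% and 34.0% of peaks. The late ratio therefore stayed above the background in each held-out set, and so did the early one. With 3 numbers no test of the medians is given, and the peaks chosen in the 3 rounds overlap.

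**Figure D2:**
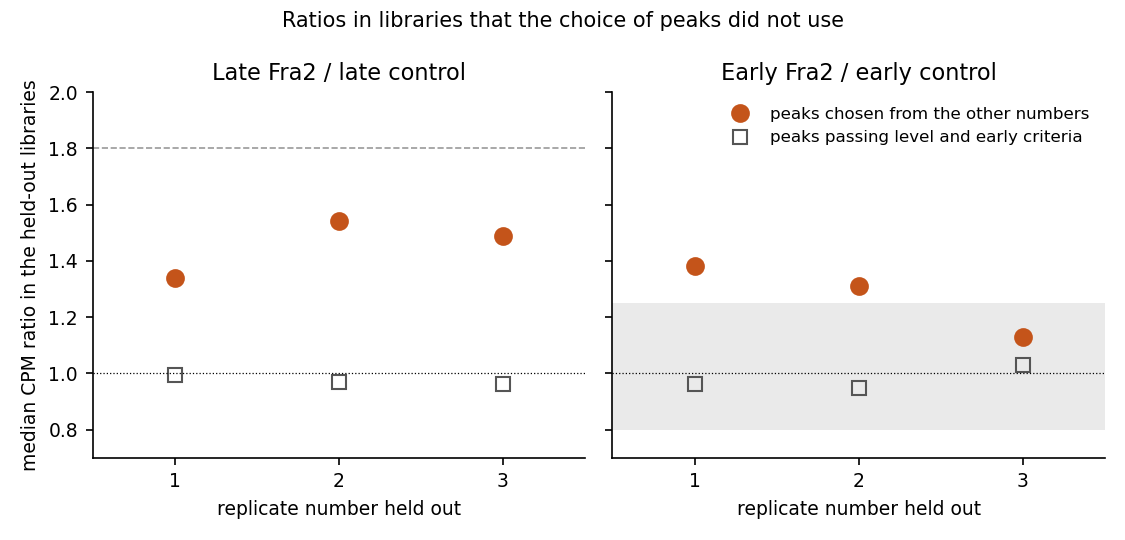
Median CPM ratio in the held-out libraries (y axis) by the replicate number held out (x axis), late on the left and early on the right; circles are peaks chosen from the other 2 numbers, squares are peaks that met the level and early criteria in those numbers. Late medians were 1.34 to 1.54, below the threshold of 1.8 (dashed), and early medians were 1.13 to 1.38, of which 2 lay above the window of the rule (grey).

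The early ratio moved with single early libraries, early control 3 among them. Early control 3 was the highest of the 3 early controls in 449 late-gained peaks (64.9%), against 30.4% of the background. With this library left out, the median early ratio of the 692 peaks was 1.17 in place of 1.11, 478 peaks stayed in the early window, 210 lay above it (2787 of the 64361 background peaks), and 3 reached 1.8. Leaving out early control 1 gave a median of 1.02, with 532 peaks in the window, 102 above and 58 below, and leaving out early control 2 gave 1.06, with 584 in the window. Leaving out early Fra2 1 gave 1.12, with 495 in the window, 168 above and 29 below, so other early libraries also moved peaks across the window. The part of depth in the level of early control 3 was not tested.

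The Ezh2 inhibitor group took no part in the choice, although its comparison shares the early controls with the rule. The median log2 fold change of the late-gained peaks with the inhibitor was 0.13, against -0.01 in the background and 0.00 over all peaks. The fold change was above 0 in 452 of the 692 peaks (65.3%), against 48.4% of the background. By edgeR's adjusted p, 5 peaks were higher and 0 lower, where 0.552% of all peaks were called higher and 0.341% lower. As shares, 0.723% of the late-gained peaks and 0.21% of the background were called higher, and 0% and 0.238% lower. With only the inhibitor and early control libraries in the fit, edgeR called 0 late-gained peaks, and 10 higher and 1 lower over all peaks. At an unadjusted p under 0.05, 84 were higher and 23 lower (12.1% and 3.32%; all peaks 7.51% and 7.14%), and DESeq2 called 3 higher and 0 lower. All 3 inhibitor libraries were above all 3 early controls in 101 peaks (14.6%; all peaks 11.9%) and below them in 18 (2.60%; all peaks 6.84%).

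These calls changed with single libraries of the early control and the inhibitor groups. The main fit called 1139 higher and 704 lower over all peaks. Without early control 3 edgeR called 22 late-gained peaks higher and 1 lower (all peaks 2933 and 4621). Without early control 1 it called 11 and 2 (all peaks 1740 and 1562), and without early control 2 it called 0 (all peaks 199 and 149). Without inhibitor library 1, 2 or 3 it called 1, 2 and 1 higher (all peaks 197, 267 and 171). With scaling factors taken from gene-end peaks it called 27 higher and 0 lower (all peaks 7395 and 536). This scaling moved the median of all peaks from 0.00 to 0.14, so the 27 are relative to that shift. Calls over all peaks thus moved in the same fits, and nothing is read from these changes in the late-gained counts. Under gene-end scaling, 93.2% of all inhibitor calls were higher, against 61.8% in the main fit. The late and early contrasts went from 64.6% to 94.5% and from 67.2% to 92.5%. The inhibitor libraries are labelled day 4, as is early control 3, whereas early controls 1 and 2 are labelled day 3. Early control 3 and the inhibitor libraries also have sample identifiers in a separate range from the others. The S numbers in the inhibitor titles form a further separate range, whose meaning the labels do not give. Whether the construct, the sort, these differences or the inhibitor sets this group apart cannot be told apart.

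The 5 called peaks were led by a region just past an end of Thbs1, which encodes thrombospondin 1, a matricellular protein that activates latent TGF-β. The peak (chr2:118126961-118127462, 0.078 kb from the gene's end) had 6.91, 4.94 and 4.00 CPM in the early controls and 10.5, 10.2 and 11.3 with the inhibitor. Early Fra2 had 6.24, 6.24 and 5.96 CPM, the late controls 3.69, 5.38 and 4.30, and late Fra2 10.1, 8.30 and 8.34. The inhibitor and late Fra2 libraries were above all 9 others. The log2 fold change with the inhibitor was 0.90 ± 0.17 (SE, edgeR adjusted p = 0.00486).

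Another late-gained peak lay beside it, at an end of Fsip1 (chr2:118129921-118130422). It had 8.20, 6.16 and 3.26 CPM in the early controls, 2.49, 3.01 and 2.77 in the late controls, 5.21, 4.67 and 7.16 in late Fra2, and 8.92, 8.56 and 8.42 with the inhibitor. Its inhibitor libraries were above its early controls without overlap, but the log2 fold change of 0.41 ± 0.18 did not pass (edgeR adjusted p = 0.280).

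The nearest gene to another called peak was Casp12, an inflammatory caspase (chr9:5415211-5415712). It had 3.15, 2.36 and 4.15 CPM in the early controls, 4.78, 4.34 and 3.05 in late Fra2, and 6.02, 6.29 and 5.26 with the inhibitor (log2 fold change 0.88 ± 0.22, edgeR adjusted p = 0.0347). The other 3 had no protein-coding gene within 100 kb. At chr15:15361827-15362328 the early controls had 4.02, 3.37 and 2.96 CPM and the inhibitor libraries 6.60, 5.55 and 6.96 (log2 fold change 0.80, edgeR adjusted p = 0.0257). At chr8:89957416-89957917 and chr8:15608201-15608702 the log2 fold changes were 0.88 and 0.73, with edgeR adjusted p = 0.0424 and 0.0360. At all 5 peaks the inhibitor libraries stood above all the early controls and above every late Fra2 library. None of the 5 was called with only the groups compared in the fit.

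**Figure D3:**
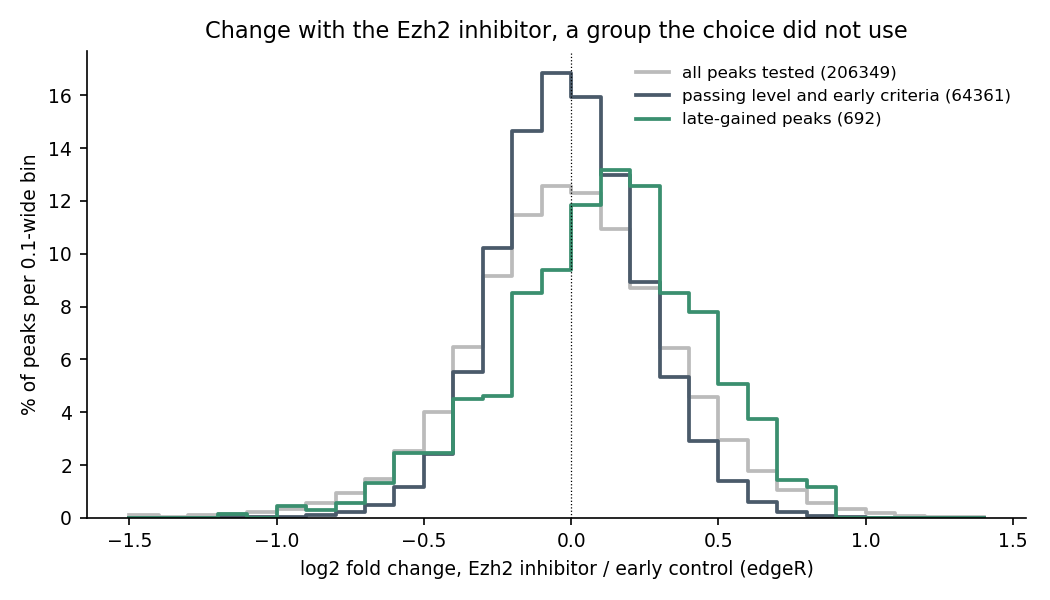
Distribution of the edgeR log2 fold change of Ezh2 inhibitor against early control (x axis, bins of 0.1) as percent of peaks (y axis) for all peaks, background peaks and the 692 late-gained peaks. The late-gained peaks are shifted towards higher values, with a median of 0.13 against -0.01 in the background and 0.00 over all peaks.

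The value with the inhibitor was similar at lower late ratios. Among background peaks with a late ratio of 1.5 to 1.8, which the rule left out, the median log2 fold change with the inhibitor was 0.10. It was 0.12 in late-gained peaks under a ratio of 2 and 0.13 in the rest, and -0.13 in background peaks with a late ratio under 0.8. The share at gene ends over the same bands was 38.1% under 0.8, 4.08% at 1.5 to 1.8, 1.73% at 1.8 to 2 and 2.44% at 2 and over.

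Late-gained peaks lay away from gene ends. Here a gene end means within 1 kb of the start or the end of a protein-coding gene of RefSeq GRCm38.p6. Such positions held 14 of the 692 peaks (2.02%, 95% Wilson interval 1.21 to 3.37%), against 20.8% of the background and 13% of all peaks. Gene bodies held 360 (52.0%; background 44.5%), and 318 lay outside genes (46.0%; background 34.7%). The intervals cover counting error only. Peaks gained at both times, with both ratios at least 1.8, had 2.08% at gene ends (67 of 3227), and peaks gained early whose late ratio lay within the same window around 1 had 2.58%, so this position was shared with the other gained sets.

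Of the late-gained peaks, 179 lay over 100 kb from any start in the promoter table (25.9%; background 12.1%), and the median distance was 32.6 kb over the 669 peaks that had one (background 14.6 kb). Host genes of those in gene bodies had a median length of 129 kb, against 97.0 kb in the background. The next consensus peak was 3.38 kb away at the median, against 1.24 kb. This spacing was not compared at a matched level. Another late-gained peak lay within 10 kb of 32 peaks (4.62%; background 0.901%) and within 100 kb of 85 (12.3%; background 6.88%).

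**Figure D4:**
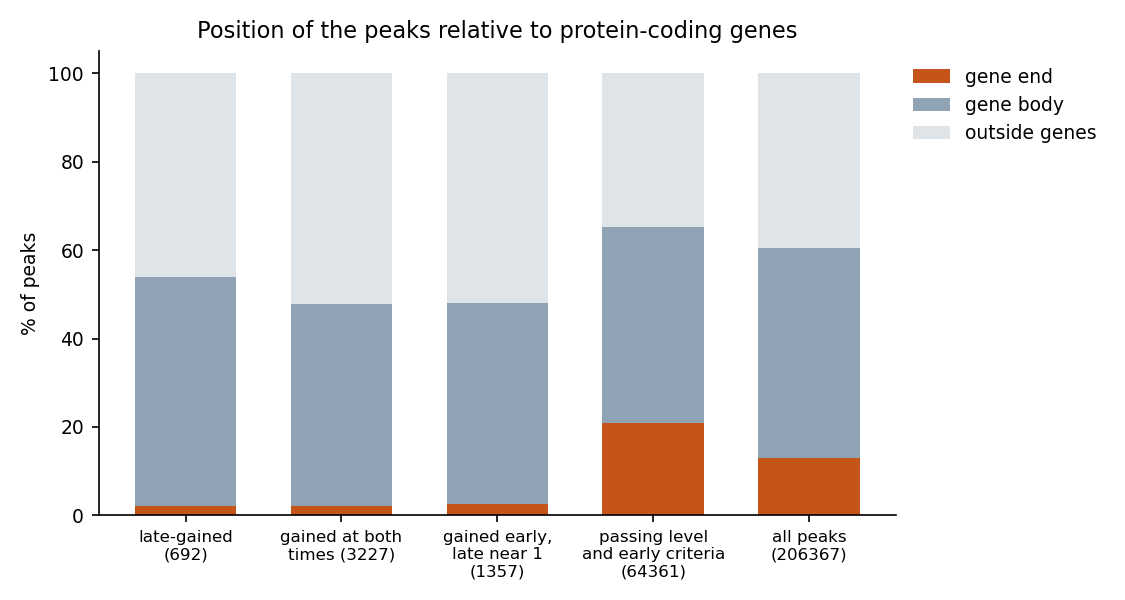
Percent of peaks (y axis) by position (gene end, gene body, or outside any protein-coding gene) for 5 sets of peaks with their numbers. Gene ends took 2.02% of the late-gained peaks, 2.08% of the peaks gained at both times and 2.58% of those gained early, against 20.8% of the background and 13% of all peaks.

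Per 1000 background peaks, chromosome 14 held 17.6 late-gained peaks, chromosome 16 held 17.0 and chromosome 9 held 16.5, while chromosome 17 held 4.62 and chromosome 19 held 3.34. Of the 692 peaks, 558 had a nearest protein-coding gene within 100 kb. They went to 517 genes, of which 486 had 1 late-gained peak.

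In the authors' per-library peak lists, all 692 late-gained peaks overlapped a listed peak in late Fra2 1 and 2 and 687 in late Fra2 3. The late controls listed 163, 364 and 351, the early controls 577, 383 and 124, and early Fra2 661, 531 and 427. The inhibitor libraries listed 629, 608 and 652. All 3 of those lists held 562 late-gained peaks (81.2%), near the 80.8% of all peaks. The background, whose peaks were more open, had 98.3%. The 3 late control lists together missed 194 of the 692 peaks (28%), against 0.461% of the background. The lists were made from the same libraries whose counts the rule used. The rule asked for a minimum late Fra2 level and for a late control well below it. It thus favoured listing in late Fra2 and absence from the late control lists, and nothing is read from those counts. List sizes differed from 114359 in early control 3 to 305369 in inhibitor library 3, and a library with more reads can list more low peaks, so the lists show presence and not size.

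The gene lists below were chosen with results of these data already known. AP-1 target and wound genes held 13 late-gained peaks at 6 genes, which is 3.87% of the 336 background peaks of that list, against 1.08% for all background peaks. Over all 838 peaks of that list edgeR called 71 higher and 12 lower in late Fra2 (all peaks 6.45% and 3.54%). It called 87 higher and 24 lower in early Fra2 (all peaks 10.1% and 4.91%), so the 87 are near the share of all peaks. With the inhibitor it called 18 higher and 4 lower (all peaks 0.552% and 0.341%). The median late log2 fold change of the list was 0.13 (all peaks -0.01). The 13 late-gained peaks of the list included 5 at Hmga2 and 4 at Cd44. The myofibroblast and contractile list held 7 peaks (1.49% of its background peaks), 6 of them at Tpm1 and 1 at Myocd, and the chemokine and cytokine list held 3 (2.38%), all at Csf1. Extracellular matrix genes held 5 (2 at Fn1, and Thbs1, Col4a1 and Col11a1), which is 1.01% of their 496 background peaks. Integrin and adhesion genes held 4 (0.957%), growth factor genes 3 (1.08%) and matrix proteases 3 (1.49%), shares near that of all background peaks. No late-gained peak belonged to the AP-1 family genes (299 peaks, 112 of them background peaks). None belonged to the senescence and p53 genes (318 and 97) or the chondrogenic and osteogenic genes (291 and 94). The ribosomal protein genes and the endothelial, epithelial, macrophage and neuronal markers, each with fewer background peaks, held none either. At the 1.08% of all background peaks, lists of this size would hold few, so nothing is read from these absences.

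Fosl2 itself had 36 peaks and no late-gained one. By edgeR 8 of its peaks were higher and 2 lower late (all peaks 6.45% and 3.54%), and 9 were higher and 0 lower early (all peaks 10.1% and 4.91%).

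Tpm1, which encodes tropomyosin 1, an actin filament protein of stress fibres, had the most late-gained peaks. Its 6 lay over 75.2 kb of chromosome 9. Of its 68 peaks edgeR called 23 higher and 3 lower late, 10 higher and 3 lower early, and 4 higher and 2 lower with the inhibitor. Over all peaks the shares were 6.45% and 3.54% late, 10.1% and 4.91% early, and 0.552% and 0.341% with the inhibitor. The 23 include the 6 late-gained peaks. Tpm1, Csf1, Hmga2 and Cd44 were named for their late-gained peaks, which favoured their late counts. The peak at chr9:67029910-67030411, in the gene body, had 2.73, 2 and 5.33 CPM in the early controls and 2.96, 4.26 and 3.38 in early Fra2. It had 1.43, 2.31 and 1.65 CPM in the late controls and 3.55, 4.88 and 4.73 in late Fra2. The late groups did not overlap, as at 670 of the 692 peaks, and the early groups did because of early control 3. At the peak 41.3 kb from the gene (chr9:67090766-67091267) the early controls had 3.66, 3.08 and 9.33 CPM, early Fra2 3.97, 5.13 and 4.12, the late controls 3.92, 3.07 and 3.53 and late Fra2 5.64, 6.46 and 7.16. Early control 3 was the highest early control at all 6 Tpm1 peaks, and without it 4 of the 6 had an early ratio above the window.

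Csf1 encodes the colony-stimulating factor on which macrophages depend. Its 3 late-gained peaks lay over 9.65 kb. Of its 53 peaks edgeR called 17 higher and 0 lower late (all peaks 6.45% and 3.54%), and the 17 include those 3. It called 16 and 0 early (all peaks 10.1% and 4.91%) and 13 and 0 with the inhibitor (all peaks 0.552% and 0.341%). The peak at chr3:107742020-107742521 had 1.13, 2.51 and 4.00 CPM in the early controls, 1.99, 2.61 and 3.16 in early Fra2, 3.02, 1.21 and 2.18 in the late controls and 4.36, 6.24 and 4.86 in late Fra2. Early control 3 was the highest early control at all 3 peaks, and without it 2 of the 3 had an early ratio above the window. Early gains were thus called at other peaks of this gene.

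Hmga2 encodes a chromatin protein that is abundant in embryonic mesenchyme. Its 5 late-gained peaks lay over 45.3 kb of its gene body. Of its 120 peaks edgeR called 10 higher and 1 lower late (all peaks 6.45% and 3.54%), and the 10 include those 5. It called 6 higher and 4 lower early (all peaks 10.1% and 4.91%). With the inhibitor it called 0 in either direction (all peaks 0.552% and 0.341%). The most open of the 5 (chr10:120437934-120438435) had 3.82, 3.22 and 4.74 CPM in the early controls, 3.84, 3.95 and 3.90 in early Fra2, 4.22, 3.93 and 2.59 in the late controls and 6.49, 8.14 and 7.66 in late Fra2. Late Fra2 stood above the other early and late libraries at this peak, and the inhibitor libraries, at 4.86, 3.42 and 3.76 CPM, overlapped the early controls. Early control 3 was the highest early control at all 5 Hmga2 peaks, and 4 of the 5 kept an early ratio within the window without it.

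Cd44 encodes the receptor for hyaluronan on fibroblasts. Its 4 late-gained peaks lay over 36.7 kb of chromosome 2. Of its 105 peaks edgeR called 9 higher and 0 lower late (all peaks 6.45% and 3.54%), and the 9 include those 4. It called 4 higher and 5 lower early (all peaks 10.1% and 4.91%). With the inhibitor it called 5 higher and 0 lower (all peaks 0.552% and 0.341%). The peak at chr2:102825906-102826407 had 2.53, 3.37 and 2.22 CPM in the early controls, 3.00, 2.29 and 3.53 in early Fra2, 3.54, 2.83 and 2.36 in the late controls and 5.60, 6.29 and 6.66 in late Fra2. Late Fra2 was well above the other 9, and early control 3 was the lowest early control here. Early control 3 was the highest at 1 of the 4 Cd44 peaks, and all 4 kept an early ratio within the window without it. With the inhibitor the 4 peaks had log2 fold changes of 0.43 to 0.67, none of which passed (lowest edgeR adjusted p = 0.0955).

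**Figure D5:**
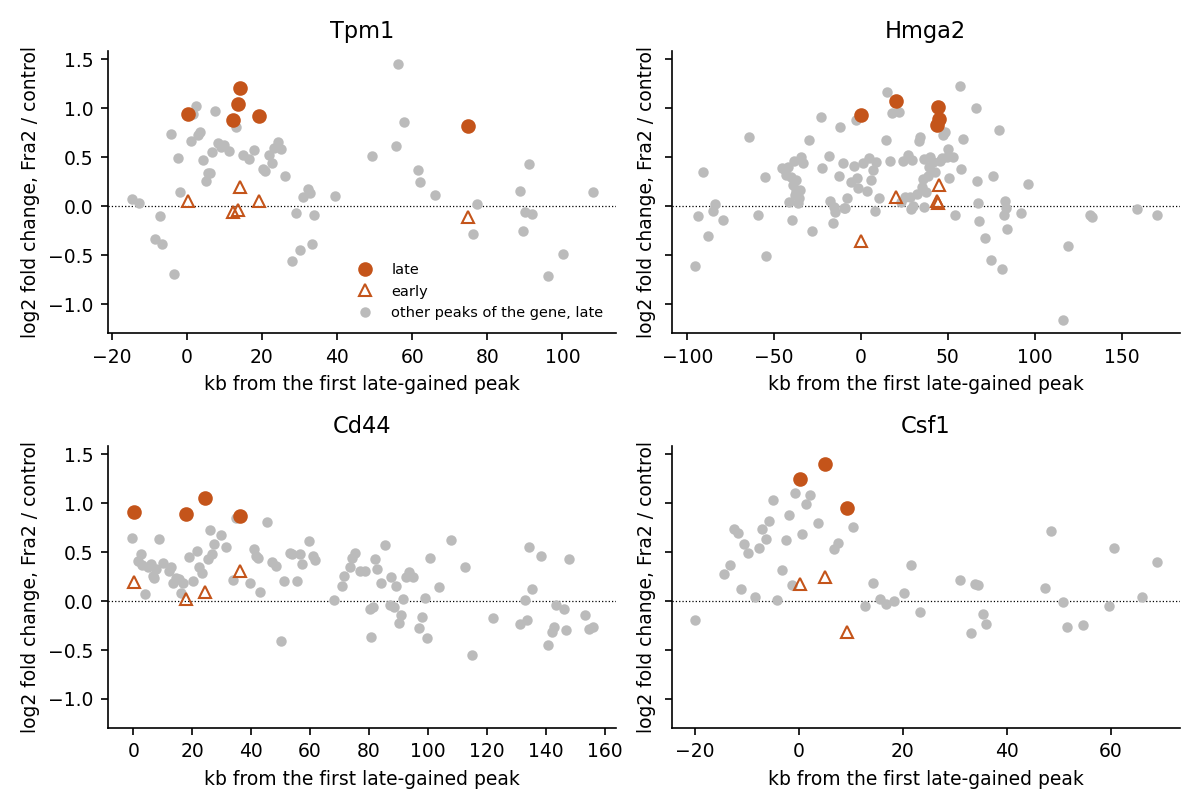
Log2 fold change of Fra2 against control from edgeR (y axis) for every peak assigned to Tpm1, Hmga2, Cd44 and Csf1, by distance from the gene's first late-gained peak (x axis, kb). Filled circles are the late and open triangles the early values of the late-gained peaks, and grey circles are the late values of the gene's other peaks; the late-gained peaks lie among other peaks that are mostly above 0.

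Adcy2, an adenylyl cyclase gene, had 2 late-gained peaks within 23.3 kb. At chr13:68793243-68793744 the early controls had 5, 6.16 and 3.70 CPM, the late controls 3.32, 3.01 and 3.36, late Fra2 6.62, 4.83 and 6.54, and the inhibitor libraries 7, 6.29 and 7.75. The late controls were the lowest group, and the inhibitor libraries were above all early controls, with a log2 fold change of 0.42 ± 0.18 that did not pass (edgeR adjusted p = 0.255).

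Among single peaks at matrix genes, the more open peak of Fn1, the fibronectin gene (chr1:71617332-71617833), had 3.09, 3.15 and 3.11 CPM in the early controls and 3.05, 2.84 and 4.34 in early Fra2. It had 3.39, 3.30 and 3.89 CPM in the late controls and 6.83, 5.75 and 6.91 in late Fra2. Here the late controls were not below the early controls, and late Fra2 stood above the control and early Fra2 libraries. The inhibitor libraries, at 4.28, 3.84 and 5.77 CPM, overlapped late Fra2. A peak 1.76 kb from Vim, the gene of the intermediate filament vimentin (chr2:13584337-13584838), had a different makeup. Its early controls had 6.40, 5.30 and 6.22 CPM, its late controls 3.54, 3.47 and 3.95, and late Fra2 7.77, 6.46 and 6.73, so that late Fra2 lay just above the early controls.

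Single peaks also lay at signalling genes. Near Inhba, which encodes the activin A subunit (chr13:16032723-16033224), the early controls had 1.86, 1.22 and 2.81 CPM, early Fra2 2.36, 1.11 and 2.58, the late controls 2.41, 2.14 and 1.77, and late Fra2 3.84, 5.05 and 5.98. A peak 20.8 kb from Areg, the gene of the EGF receptor ligand amphiregulin (chr5:91118574-91119075), had 1.70, 3.15 and 5.33 CPM in the early controls, 3.28, 1.74 and 2.21 in early Fra2, 2.11, 2.37 and 2.77 in the late controls, and 5.55, 4.99 and 5.67 in late Fra2. At both genes the late groups did not overlap, as at 670 of the 692 peaks, and the early controls spread more widely than the late ones. A peak in Tead1, a partner factor of YAP (chr7:112896271-112896772), had 1.86, 1.15 and 4.44 CPM in the early controls and 2.31, 3.91 and 3.99 in late Fra2.

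The list of Polycomb subunit genes (PRC2 and PRC1) held 2 late-gained peaks, both at genes of PRC2. This is 1.55% of the 129 background peaks of that list, near the 1.08% of all background peaks. The peak in Mtf2, an accessory subunit that binds DNA (chr5:108100153-108100654), had 3.25, 2.36 and 3.41 CPM in the early controls, 2.56, 1.39 and 1.53 in the late controls, 3.93, 3.74 and 3.80 in late Fra2, and 2.59, 2.73 and 2.53 with the inhibitor. The peak in Jarid2, another accessory subunit (chr13:44784388-44784889), had 1.75, 1.86 and 2.37 CPM in the early controls, 1.51, 1.39 and 1.83 in the late controls, 3.25, 3.09 and 2.86 in late Fra2, and 1.78, 1.20 and 1.31 with the inhibitor. At both, late Fra2 was the highest group, and the inhibitor libraries overlapped the early controls (edgeR adjusted p = 0.731 and 0.508).

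By their late Fra2 level, the most open late-gained peaks were at chr2:107973403-107973904, far from any protein-coding gene, and in Snx1, which encodes a sorting nexin of the endosome. The Snx1 peak (chr9:66105799-66106300) had 4.54, 3.87 and 2.67 CPM in the early controls, 4.62, 5.37 and 3.75 in early Fra2, 5.13, 4.74 and 3.36 in the late controls and 8.71, 8.46 and 10.6 in late Fra2. In this peak all late Fra2 libraries were above all others, and the late and early controls overlapped. In Fat3, a protocadherin gene (chr9:16215294-16215795), the late controls had 4.60, 5.32 and 4.65 CPM and late Fra2 9.44, 8.41 and 9.34, against 4.89 to 5.83 in the early controls and 6.06 to 6.82 with the inhibitor.

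Of the 692 peaks, 61 were chosen again without each replicate number in turn and under TMM scaling. The one with the highest late ratio, in Srgap3 (chr6:112861838-112862339), had 1.43, 0.868 and 0.707 CPM in the late controls and 3.29, 3.47 and 2.93 in late Fra2, a ratio of 3.355. Its early controls had 1.5, 1.86 and 3.41 CPM and its early Fra2 libraries at most 2.61, so the late Fra2 level overlapped the highest early control.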

How the data were processed

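Counts are raw reads per consensus peak as deposited, with no scaling; per the submitters' processing notes the tools were MACS2 and the build mm10, and peak names in the deposited lists contain trim, bowtie and dedup, and no source used here gives versions. Per the deposited peak lists, made for each library, enrichment is a fold ratio and p-values are −log10, both from the peak caller. The score of the authors' deposited consensus list was used only to check positions. From the counts, 15 libraries were fitted together with edgeR 4.0.16 (R 4.3.3; TMM, filterByExpr, quasi-likelihood test, Benjamini-Hochberg over 206349 peaks, threshold 0.05), with DESeq2 1.42.0 and limma 3.58.1 as alternatives. One read was worth the most CPM in the library with 6750614 reads, where 3 CPM is 20.3 reads. Scripts were tested on simulated data. Each peak took its closest RefSeq GRCm38.p6 protein-coding gene within 100 kb (21900 gene intervals). No genome was used here, and so no peak sequence or GC content. The peaks, gene lists and tests were chosen with earlier results of these data known. Named peaks are those with the highest late Fra2 level, the largest late change, gene ends, each gene list's most open peaks, inhibitor calls, the genes with most peaks, the peaks nearest each threshold and those kept in every re-choice; peaks at promoter windows and the called difference were added after values were seen, as were the ratio bands and the early ratios without a library.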

Additional observations from a re-analysis of the deposited data

How the results depend on the processing

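The late-gained set grew to 2826 peaks at a late ratio of 1.5 and shrank to 112 at 2.2, to 117 at 5 CPM and to 267 with an early ratio of 0.9 to 1.1; leaving out 1 library gave 539 (without early control 3, 478 of them shared) to 1115 (without late control 1). Peaks called higher late ranged from 349 to 692 over fits without 1 library, against 645; the low counts were without late control 2 or 3 (368 and 349) or late Fra2 1 or 2 (391 and 382). Early calls were 3 with gene-end scaling and 0 to 1 without 1 library. The difference was called in 3 peaks with gene-end scaling, 3 with library totals, 3 with cyclic loess in limma and 0 to 10 without 1 library (10 without early control 1, 7 without early control 3). Inhibitor calls were 27 with gene-end scaling, 3 with cyclic loess, 3 with DESeq2, 0 with only the groups compared, and 0 to 23 without 1 library; among the 478 peaks kept without early control 3 they were 9, 8 higher and 1 lower, an alternative chosen after seeing the data. Over all peaks the inhibitor calls also moved, for example from 1139 higher and 704 lower to 7395 and 536 with gene-end scaling. Gene-end scaling moved the median of all peaks from -0.01 to 0.22 late and from -0.03 to 0.17 early. Gene ends held 42 peaks at 2 kb and 8 at 0.5 kb. Held-out late medians under TMM were 1.37, 1.47 and 1.45. Same-numbered libraries did not deviate together in every pair (correlations from -0.0904 to 0.262), and the replicate block changed no count by much, with 646 late, 0 early, 1 difference and 5 inhibitor calls. Late-gained peaks had a median of 23 reads in early control 3. Whether depth had a part in these shifts was not tested, nor was any other cause.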
